A study of Mus musculus with 32 samples.

Results

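The 10 genes described here encode the core machinery that makes microRNAs and silences their targets: Drosha, Dgcr8, Xpo5, Dicer1, Tarbp2, Ago1, Ago2, Ago3, Tnrc6a and Tnrc6b. They were chosen by name from the 45706 genes of a count table and all 10 were present and passed the filter on low counts in each of the 14 comparisons made. RNA sequencing had been performed on 32 libraries of total RNA from the mouse line BV-2, immortalised microglia (the brain's own macrophages). The study asked which genes change when microRNA levels are raised in resting and in activated microglia. Cells of 8 groups with 4 libraries each were transfected with a scramble control mimic or with a mimic of miR-7a, miR-146a or miR-29a, each a microRNA. A mimic is a short double-stranded RNA that enters the cell as a ready-made microRNA. Each mimic was given to cells that had vehicle (VEH) or lipopolysaccharide at 10 ng/ml for 24 h (LPS, a piece of the outer wall of bacteria to which microglia respond).

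All groups were wild-type cells of 1 line, so no group stands for microglia in an animal. All were transfected, and no untransfected cells were analysed here. The labels place the LPS treatment before the transfection, while the study's methods describe transfection first for its phagocytosis assay and give no order for the sequenced cells. The labels also give the line a glioblastoma cell type and some libraries an age of mice, neither of which describes BV-2 microglia. Of 10 microglial and macrophage markers, 9 were present in every library, among them Csf1r at 297 to 1075 CPM (estimated counts per 1000000 counts of the library, with each library's total multiplied by its TMM factor, 0.689 to 1.16) and Adgre1 at 363 to 1376 CPM. Cx3cr1, a receptor of resting microglia, was low and was at 0 in 5 libraries. Defining markers of astrocytes (Gfap, Aqp4, Aldh1l1) and neurons (Rbfox3, Snap25) were at 0 in 21 or more of the 32 libraries.

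The totals of estimated counts ran from 1130000 to 9520000 in the VEH libraries and from 2680000 to 20300000 in the LPS libraries, so depth moved with the treatment, and its part in the LPS comparisons was not tested. In VEH_miR-7a, replicates 2 to 4 had 33.4 to 36.8% of their counts in small structural RNA genes, against 2.59 to 17.5% in the libraries of the other 7 groups. This share also moved with the treatment, from 6.58 to 11.7% in VEH_scramble to 2.66 to 5.88% in LPS_scramble. With miR-29a and miR-146a the LPS and VEH ranges overlapped. Leaving these genes out was among the alternatives, and other effects of the difference were not tested. The deposited table had lost its decimal marks, and each value was read back as an estimated count before any comparison. For the 10 genes the least certain of these readings had a model probability of 0.976 (Ago1), and Ago2 was fractional in 32 of 32 libraries, Ago3 in 31, Ago1 in 30 and Xpo5 in none.

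A microRNA begins as a long nuclear transcript, the primary microRNA. Drosha, an RNase III enzyme, and its RNA-binding partner Dgcr8 cut out a hairpin, exportin 5 (Xpo5) carries the hairpin to the cytoplasm, and Dicer1 with its partner Tarbp2 trims it to a short duplex. One strand is loaded into an Argonaute protein (Ago1, Ago2, Ago3), which pairs through the seed, bases 2 to 8 of the microRNA, with sites in messenger RNAs. Among mammalian Argonautes, Ago2 is known for the ability to slice a fully paired target. The proteins Tnrc6a and Tnrc6b (GW182 family) bind Argonaute and recruit deadenylases that shorten the tail of the bound message. A transfected mimic enters at the Argonaute step and does not need Drosha, Dgcr8 or Xpo5.

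The mature sequences that the 3 mimics represent are shown because their seeds define the sites searched in the 10 genes. They were taken from RefSeq (build GRCm38.p6), with the seed in capitals.
mmu-miR-7a-5p: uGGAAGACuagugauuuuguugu
mmu-miR-29a-3p: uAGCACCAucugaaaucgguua
mmu-miR-146a-5p: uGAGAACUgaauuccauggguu

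The 3 seeds differ, so the 7-base sites that pair with them differ too: GTCTTCC for miR-7a, TGGTGCT for miR-29a and AGTTCTC for miR-146a. Only the sense strand of 1 annotated 3′ UTR per gene was searched, and none of the 11 sites found in the 10 genes overlapped another. The site was present in 11.2% (miR-7a), 12.4% (miR-29a) and 10.6% (miR-146a) of 21901 mouse genes. The UTRs of Drosha (168 bases), Dgcr8 (1574 bases), Tarbp2 (334 bases) and Tnrc6a (2345 bases) held none of the 3 sites. Ago1 held 1 of each, and Xpo5 held 1 for miR-29a.

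The sites for miR-29a and miR-146a are shown because these are the mimics with which a member was called against scramble. The miR-7a sites of Ago1 and Ago3 are not shown. The site is in capitals within its 21-base surrounding, on the strand of the gene, in build GRCm38.
Xpo5, miR-29a, chr17:46243368-46243374, plus strand: tcctgccTGGTGCTtggggtc
Ago1, miR-29a, chr4:126435572-126435578, minus strand: gctgggtTGGTGCTctcccct
Ago1, miR-146a, chr4:126436030-126436036, minus strand: gaaatctAGTTCTCaactgcg
Ago2, miR-146a, chr15:73102365-73102371, minus strand: gacaagaAGTTCTCcctctct
Ago3, miR-29a, chr4:126340058-126340064, minus strand: ttgaagaTGGTGCTgtagatt
Ago3, miR-29a, chr4:126334741-126334747, minus strand: ctttcggTGGTGCTaaagtag
Dicer1, miR-29a, chr12:104690392-104690398, minus strand: ttcccgtTGGTGCTacgttta
Tnrc6b, miR-146a, chr15:80930745-80930751, plus strand: ttctatcAGTTCTCattatca
Tnrc6b, miR-146a, chr15:80931124-80931130, plus strand: atgtagtAGTTCTCtgggccg

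The 11064-base 3′ UTR of Ago2 held no miR-29a site, while 65.8% of the 76 genes with a UTR of similar length (0.8 to 1.25 times as long) held at least 1. The 12742-base UTR of Ago3 held no miR-146a site, against 67.4% of 46 genes of similar length. It held 2 miR-29a sites and 1 miR-7a site. These matches describe letters in the annotated UTR only.

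In resting control cells Ago2 was by far the most abundant message of the 10. Levels between genes were compared as CPM per kilobase of transcript. In VEH_scramble, Ago2 stood at 124 ± 35.7 (SD, n = 4), followed by Tarbp2 at 20.4 ± 2.90, Drosha at 12.97 ± 1.24 and Xpo5 at 12.7 ± 2.49. Ago1 (8.61 ± 2.32), Tnrc6b (7.92 ± 1.59), Dicer1 (6.53 ± 0.538), Ago3 (6.36 ± 0.764), Tnrc6a (5.69 ± 0.838) and Dgcr8 (4.98 ± 1.05) came next. The lowest Ago2 library (86.2) lay above the highest Tarbp2 library (23.3), and the lowest Tarbp2 library (17.8) lay above the highest libraries of Drosha (14.2) and Xpo5 (16.4). The libraries of Drosha and Xpo5 overlapped, as did those of neighbours in the order from Ago1 to Dgcr8.

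**Figure D1:**
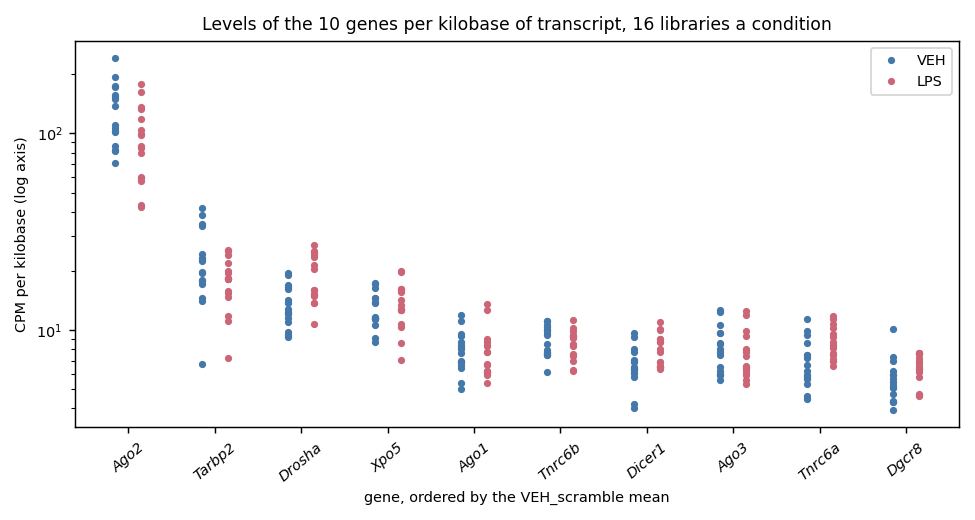
Level of each gene in CPM per kilobase of transcript (log axis) in the 16 VEH and the 16 LPS libraries, with genes ordered by the VEH_scramble mean. The Ago2 points, from 42.1 to 241, lie above every point of the other 9 genes.

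Several of the genes share sequence or ground with others, which limits how exactly reads can be assigned to them. Of the 31-base words of Ago2 (chr15:73095844-73184935 in GRCm38, minus strand, 19 exons), 5.88% also occur in other genes, most in the pseudogene Gm6088, and the gene Chrac1 lies on the opposite strand. Gm6088 was counted at 9.12 to 36.6 CPM and Chrac1 at 16.1 to 34.8 CPM, both small beside Ago2. Tarbp2 (chr15:102518192-102523676) shares 16.6% of its words and Dgcr8 (chr16:18253948-18289246) 6.50%. Ago1 and Ago3, neighbours on chromosome 4, share 140 words, and their fractional counts summed to a whole number (within 0.0025) in 15 of the 28 libraries where both were fractional.

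LPS and vehicle were first compared over all 4 mimics. Drosha and Tnrc6a rose and Ago2 fell, by less than 1.5-fold each, and the other 7 genes were not called. A gene was called at a limma-voom adjusted p under 0.05 over all genes tested together with a log2 fold change beyond 0.3 in either direction. Of the 10 genes 3 were called, and of all 12225 genes tested 34.6% were, so the share among the 10 was near the background. Of 9 microglial markers tested, 2 rose and 4 fell, with sums of 3263 to 5084 CPM in VEH and 2782 to 4476 CPM in LPS libraries, and their part in these values was not tested. In bulk RNA, fewer expressing cells and less RNA per cell cannot be told apart. P-values measure the spread between the 4 numbered samples of a group, which the study describes as independent experiments.

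Drosha, the nuclear nuclease, had a mean of 62.0 CPM over the 16 VEH libraries and 87.7 CPM over the 16 LPS libraries. In VEH_scramble its libraries held 52.6, 56.8, 65.1 and 62.7 CPM (replicates 1 to 4), and in LPS_scramble 73.3, 62.6, 108 and 113 CPM. The scramble groups overlapped at 1 library, LPS replicate 2. Over the 4 mimics the log2 fold change was 0.46 (SE 0.14, limma-voom adjusted p = 0.00673). In pairs of LPS and VEH libraries with the same number and mimic, Drosha was higher with LPS in 15 of 16. These pairs, and those of Tnrc6a and Ago2 below, repeat 4 replicate numbers and are descriptions. Over the 8 groups not all same-numbered libraries were correlated (lowest r = -0.0759 for deviations from group means), so the numbers are not taken as pairing them. By mimic, its log2 fold change was 0.57 (SE 0.20) with scramble, 0.66 (SE 0.24) with miR-7a, 0.37 (SE 0.26) with miR-29a and 0.13 (SE 0.23) with miR-146a, none of them called.

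Tnrc6a, one of the scaffolds that call in the deadenylases, had a mean of 57.2 CPM in VEH and 71.1 CPM in LPS libraries. In VEH_scramble its libraries held 46.0, 37.9, 47.8 and 54.5 CPM, and in LPS_scramble 56.7, 57.1, 71.4 and 75.6 CPM. All 4 LPS libraries lay above all 4 VEH libraries in the scramble groups. Over the 4 mimics the log2 fold change was 0.34 (SE 0.11, limma-voom adjusted p = 0.00949), with 13 of 16 numbered pairs higher. Without VEH_miR-7a replicate 1 or VEH_miR-29a replicate 2 the value fell under the fold limit (as low as 0.297) and the call was lost. By mimic, its log2 fold change was 0.49 (SE 0.16) with scramble, 0.43 (SE 0.22) with miR-7a and 0.41 (SE 0.22) with miR-29a, but -0.06 (SE 0.18) with miR-146a, none of them called.

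Ago2, the slicing Argonaute, had a mean of 1829 CPM in VEH and 1330 CPM in LPS libraries. Over the 4 mimics it fell by 0.49 on the log2 scale (SE 0.14, limma-voom adjusted p = 0.00379), and 14 of 16 numbered pairs were lower with LPS. By mimic, the log2 fold change was -0.33 (SE 0.22) with scramble, -0.14 (SE 0.26) with miR-7a, -1.28 (SE 0.22) with miR-29a and -0.24 (SE 0.25) with miR-146a. Among these, the miR-29a value was the one called, but the difference of each mimic from scramble did not pass the test (Ago2 interactions with LPS, limma-voom adjusted p = 0.61 to 0.978). The call over the 4 mimics was lost with a simpler reading of the lost decimals (-0.95, adjusted p = 0.0884) and with the values as deposited (-0.92, adjusted p = 0.0695).

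Without both miR-7a groups, an alternative added after the data were seen because of the structural RNA in VEH_miR-7a, Ago2 was still called but Drosha (log2 fold change 0.37, adjusted p = 0.0553) and Tnrc6a (0.29, adjusted p = 0.0495) were not. Dicer1 (0.25, SE 0.09, adjusted p = 0.0249) and Dgcr8 (0.21, SE 0.09, adjusted p = 0.0464) passed the limma-voom p over all 4 mimics but not the fold limit. The intervals of the remaining genes covered 0: log2 fold changes were 0.07 for Xpo5, -0.22 for Tarbp2, -0.05 for Ago1, -0.07 for Ago3 and -0.04 for Tnrc6b.

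**Figure D2:**
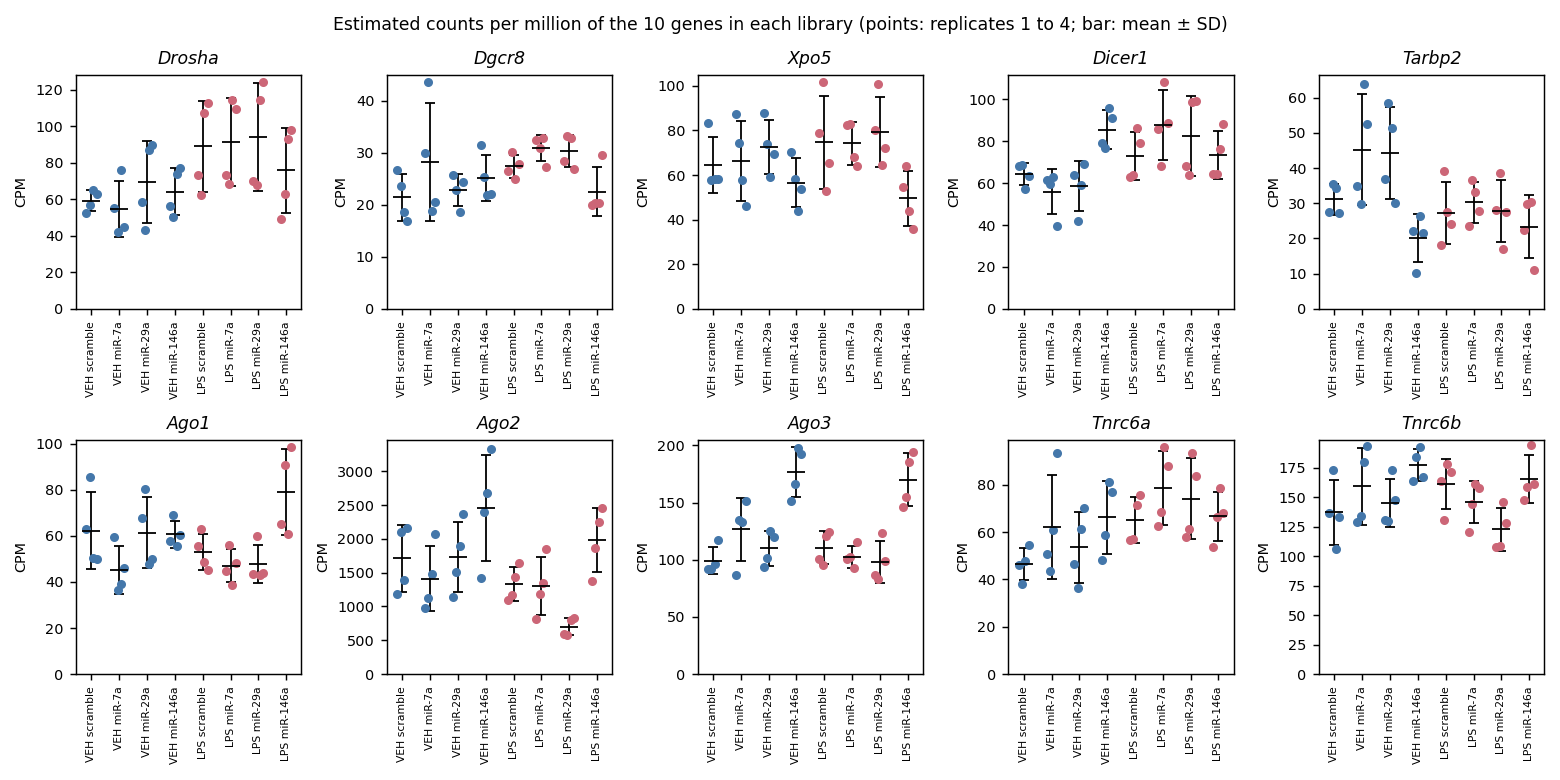
CPM of each of the 10 genes in the 4 libraries of each group (VEH in blue, LPS in red), with the group mean and SD as black bars. Ago2 in LPS_miR-29a (581 to 827 CPM) and Ago3 in both miR-146a groups (146.4 to 197 CPM) lie apart from their scramble controls.

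Within single mimics, the replicate numbers paired the libraries in 6 of the 10 pairwise comparisons (every same-numbered pair of deviations from the group means correlated above 0.1), and there the fit with the number as a block is given too. With scramble, 0 of the 10 genes were called by limma-voom without the block, against 18.3% of all genes. At an unadjusted p under 0.05 there were 3 (Drosha, Dgcr8, Tnrc6a) against 33.7% of all genes. By edgeR 0 were called, against 17.8% of all genes, and DESeq2 called Drosha and Tnrc6a against 22.2%. The shares at the unadjusted p and by DESeq2 were near the background. With the block, which called 25.4% of all genes, Drosha (log2 fold change 0.58, limma-voom adjusted p = 0.0194) and Tnrc6a (0.50, adjusted p = 0.0175) rose with LPS.

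With miR-7a, 0 of the 10 genes were called by limma-voom or edgeR, against 6.79% of all genes by limma-voom and 7.84% by edgeR. There were 2 at an unadjusted p under 0.05, against 20.5% of all genes, and DESeq2 called Dicer1 alone of the 10, against 10.8% of all genes. The shares at the unadjusted p and by DESeq2 were near the background. Dicer1, which cuts the hairpin to its final length, held 61.6, 59.4, 62.7 and 39.7 CPM in VEH_miR-7a and 85.8, 68.0, 108 and 88.7 CPM in LPS_miR-7a. The groups did not overlap, and the log2 fold change was 0.54 (SE 0.20, limma-voom adjusted p = 0.132). With miR-146a, none of the 10 was called by limma-voom, edgeR or DESeq2 (0 genes each), against 4.67%, 4.18% and 7.06% of all genes. At an unadjusted p under 0.05 by limma-voom there were 0, against 18.6% of all genes.

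With miR-29a, where limma-voom called 26.8% of all genes, Ago2 alone of the 10 was called. The same held for edgeR, against 27.4% of all genes. DESeq2 called Tarbp2 and Ago2, against 30.6%, and limma-voom on all 32 libraries called Dgcr8, Dicer1 and Ago2, against 28.6%. At an unadjusted limma-voom p under 0.05 there were 4 (Dgcr8, Dicer1, Tarbp2, Ago2), against 39.4% of all genes. The Ago2 libraries held 1142, 1517, 1900 and 2366 CPM in VEH_miR-29a and 600, 581, 795 and 827 CPM in LPS_miR-29a. All LPS libraries lay below all VEH libraries. The log2 fold change was -1.28 (SE 0.22, limma-voom adjusted p = 0.00136), a ratio of 0.413. The call was lost with a simpler reading of the lost decimals (-2.53, adjusted p = 0.188) and with the values as deposited (-1.92, adjusted p = 0.218).

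With the replicate block, which called 37.2% of all genes in this comparison, 6 of the 10 were called. Drosha (log2 fold change 0.42, adjusted p = 0.0117), Dicer1 (0.49, adjusted p = 0.0111) and Tnrc6a (0.45, adjusted p = 0.0157) rose. Tarbp2 (-0.74, adjusted p = 0.0263), Ago1 (-0.35, adjusted p = 0.046) and Ago2 (-1.28, adjusted p = 2.24e-05) fell, all by limma-voom. Drosha's partner Dgcr8 (0.40, adjusted p = 0.073) was not called, and the second scaffold Tnrc6b (-0.26, adjusted p = 0.0468) passed the limma-voom p but not the fold limit.

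The mimics were then compared with scramble. The 3 mimics of a condition share the same 4 scramble libraries, so their values are given side by side. In LPS-treated cells, miR-29a was accompanied by lower Ago2 and miR-146a by higher Ago3. In vehicle cells miR-146a was accompanied by higher Ago3, and no member was called with miR-7a in either condition.

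With miR-29a and LPS, Ago2 was the 1 of the 10 genes called, against 5.2% of all genes. LPS_scramble libraries held 1096, 1170, 1430 and 1641 CPM of Ago2 and LPS_miR-29a libraries 600, 581, 795 and 827 CPM. The groups did not overlap and the LPS_miR-29a mean was 0.528 of the scramble level by the fit (log2 fold change -0.92, SE 0.17, limma-voom adjusted p = 0.0141). Without LPS_scramble replicate 4 the adjusted p was 0.0537, with a log2 fold change of -0.82. The simpler reading of the lost decimals (-2.26, adjusted p = 0.426) and the values as deposited (-1.49, adjusted p = 0.599) also ended the call. With the replicate block (10.0% of all genes called), Ago2 gave -0.94 (limma-voom adjusted p = 3.66e-05), and Tnrc6b, which held 108 to 146.1 CPM against 131 to 179 CPM in scramble, also fell (-0.39, adjusted p = 0.0213).

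In vehicle cells the same mimic left Ago2 at 1142 to 2366 CPM against 1190 to 2161 CPM in scramble, a log2 fold change of 0.00 (SE 0.26, 95% interval -0.56 to 0.56). The difference between the miR-29a effects with LPS and with vehicle was -0.93 on the log2 scale (SE 0.33, limma-voom adjusted p = 0.61), so the effects were not shown to differ. In that interaction 2 of 12286 genes were called, 0.0163%, and none of the 10. Summed microglial markers were 2782 to 3536 CPM in LPS_miR-29a and 3591 to 4280 CPM in LPS_scramble, and their part in the Ago2 value was not tested. As given above, the annotated UTR of Ago2 holds no 7-base miR-29a site. In LPS-treated cells Ago3, with 2 sites, had a log2 fold change of -0.19 (SE 0.16). The members with 1 site gave 0.13 (SE 0.18, Dicer1), -0.14 (SE 0.15, Ago1) and 0.11 (SE 0.20, Xpo5). The part of the sites in these values was not tested.

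With miR-146a, Ago3 rose in both conditions. In vehicle cells it held 92.3, 91.7, 96.1 and 117 CPM with scramble and 151, 166, 197 and 193 CPM with miR-146a. The groups did not overlap (log2 fold change 0.83, SE 0.16, limma-voom adjusted p = 0.0275), and Ago3 was the 1 of 10 genes called against 2.66% of all genes. In LPS-treated cells it held 101, 95.3, 121 and 124 CPM with scramble and 146.4, 155, 185 and 194 CPM with miR-146a. These groups did not overlap either (log2 fold change 0.60, SE 0.14, limma-voom adjusted p = 0.0457), with 1 of 10 called against 2.51% of all genes.

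Both Ago3 calls sat close to the threshold. In LPS-treated cells the call was lost on leaving out any 1 of the 8 libraries (adjusted p 0.0542 to 0.138) and with edgeR (0.0519). In vehicle cells it was lost for 6 of 8 libraries (adjusted p up to 0.111 over the 8). With LPS the call was also lost with uncertain readings kept (adjusted p = 0.051), with no filter on low counts (0.0579), with the simpler reading of the lost decimals (log2 fold change 1.57, adjusted p = 0.42) and with the values as deposited (1.49, adjusted p = 0.741). A minimum probability of 0.99 for the readings left Ago3 untested there. With vehicle the simpler reading ended the call too (0.83, adjusted p = 0.136), and the values as deposited turned its direction (-0.43, adjusted p = 0.935). When the counts of Ago1 and Ago3 were summed, because reads shared between them had been split, the log2 fold change was 0.55 (adjusted p = 0.0565) in vehicle and 0.59 (adjusted p = 0.0272) in LPS-treated cells.

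With the replicate block, 4 of the 10 genes were called for miR-146a in LPS-treated cells, against 10.3% of all genes. Besides Ago3 (log2 fold change 0.63, limma-voom adjusted p = 0.0023), Ago1 (0.57, adjusted p = 0.0413) and Ago2 (0.56, adjusted p = 0.00361) rose and Xpo5, the hairpin exporter, fell (-0.56, adjusted p = 0.0129). Thus the 3 Argonautes were higher together in this fit. Ago1 held 65.4, 91.0, 60.7 and 98.5 CPM with miR-146a and 55.6, 62.8, 48.7 and 45.0 CPM with scramble, which overlapped at 1 miR-146a library. Ago2 held 1372, 1872, 2245 and 2455 CPM against 1096, 1170, 1430 and 1641 CPM, higher in each numbered pair. Of the 10 genes, Ago1 and Ago2 hold 1 miR-146a site each and Tnrc6b holds 2. Tnrc6b gave 0.06 in this fit (limma-voom adjusted p = 0.742). The part of the sites in these values was not tested.

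**Figure D3:**
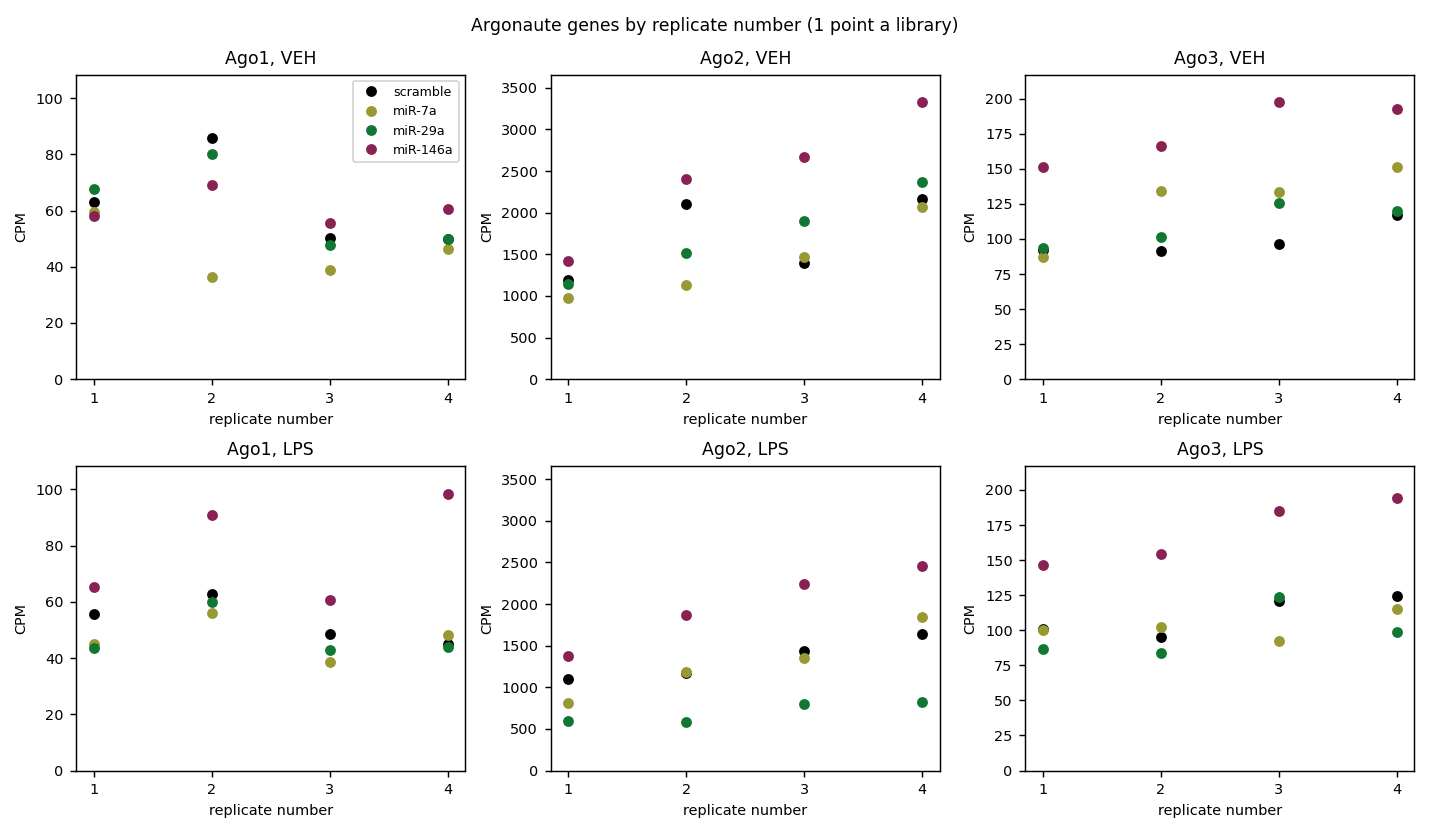
CPM of Ago1, Ago2 and Ago3 in each library by replicate number, with VEH above and LPS below and the mimic as colour. At every number the LPS_miR-29a library is the lowest for Ago2, and the miR-146a library is the highest for Ago3 in both conditions.

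With miR-146a in vehicle cells, 5 of the 10 genes had an unadjusted limma-voom p under 0.05, against 25.6% of all genes. These were Ago3, Dicer1, Tarbp2, Tnrc6a (log2 fold change 0.52, SE 0.19) and Tnrc6b (0.39, SE 0.16). Dicer1 and Tarbp2, which work together, separated from scramble in opposite directions there without being called. How many of all genes separated in this way was not counted. Dicer1 held 79.0, 76.6, 95.7 and 91.1 CPM against 68.1, 68.6, 57.2 and 63.5 CPM (log2 fold change 0.41, SE 0.15, limma-voom adjusted p = 0.112). Tarbp2 held 22.2, 10.2, 26.3 and 21.5 CPM against 27.4, 35.5, 34.3 and 27.1 CPM (-0.69, SE 0.27, adjusted p = 0.14). In LPS-treated cells the same mimic gave -0.04 (SE 0.15) for Dicer1 and -0.23 (SE 0.27) for Tarbp2. At an unadjusted limma-voom p under 0.05 there were 5 of the 10 genes (Dgcr8, Xpo5, Ago1, Ago2, Ago3), against 17.7% of all genes.

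In the other mimic comparisons, 0 of the 10 genes were called and 0 had an unadjusted p under 0.05 by limma-voom without the block, and edgeR and DESeq2 also called 0. These were miR-7a with LPS (3.08% of all genes called), miR-7a with vehicle (0.0545%) and miR-29a with vehicle (0.0172%). In the same order, 17.6%, 12.7% and 10.6% of all genes had an unadjusted p under 0.05, and DESeq2 called 6.29%, 2.14% and 0.904% of all genes. The edgeR shares were 2.86%, 0.363% and 0.0258%. With the block, 0 of the 10 were called either in the 2 of these where the numbers paired the libraries, miR-7a with LPS (9.0% of all genes called) and miR-29a with vehicle (0.835%). At an unadjusted p under 0.05 the block gave 2 in the former, Dicer1 (log2 fold change 0.24, limma-voom adjusted p = 0.187) and Tnrc6a (0.27, adjusted p = 0.137), and 1 in the latter, Tarbp2 (0.45, adjusted p = 0.131). The largest log2 fold changes there were for Tarbp2 in vehicle cells, 0.48 (SE 0.25) with miR-7a and 0.46 (SE 0.23) with miR-29a. None of the 10 had a called interaction by limma-voom, edgeR or DESeq2 (0 each). Of all genes, 0.0331% were called in the miR-7a interaction, 0.0163% in that of miR-29a and 0.0245% in that of miR-146a. These counts of 4, 2 and 3 genes became 140 without VEH_miR-7a replicate 1, 9 without VEH_scramble replicate 2 and 103 without VEH_scramble replicate 1. At an unadjusted p under 0.05 there were 0, 2 and 3 of the 10 genes in these interactions, against 5.49%, 6.63% and 11.4% of all genes.

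**Figure D4:**
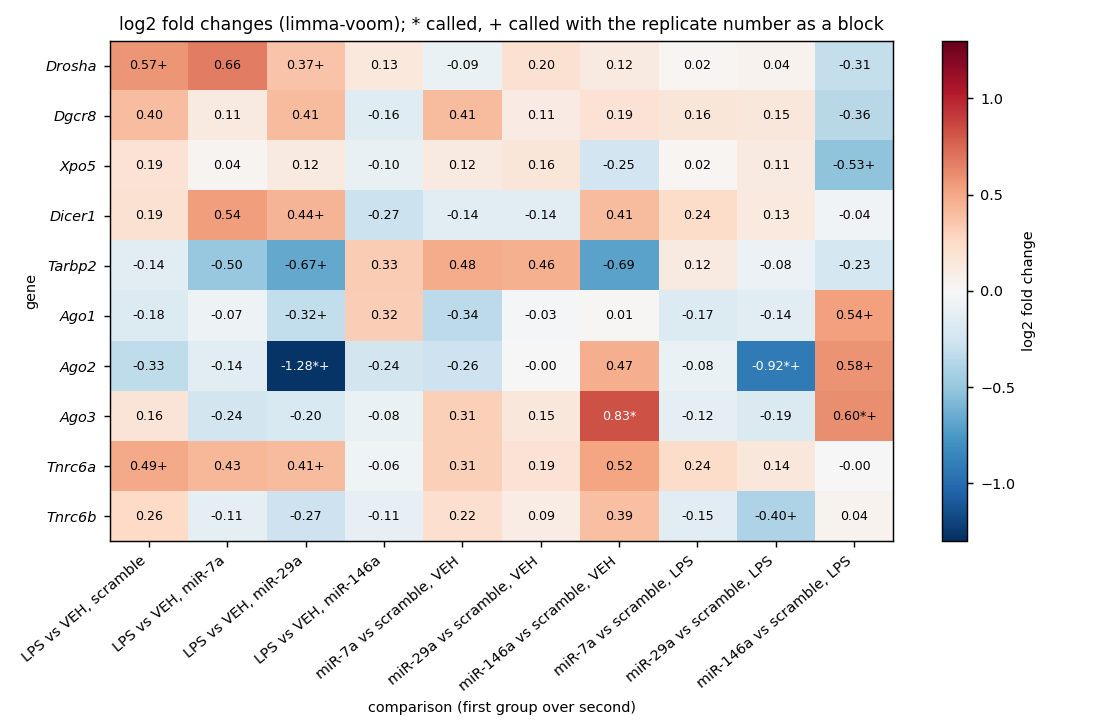
Log2 fold change (limma-voom, first group over second) of each gene in the 10 pairwise comparisons, in colour and digits. A star marks a call and a plus a call with the replicate number as a block, shown for the 6 comparisons where the numbers paired the libraries. The deepest blue is Ago2 in LPS against VEH with miR-29a (-1.28) and the deepest red Ago3 in miR-146a against scramble with VEH (0.83).

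The replicate numbers carried part of the spread of these genes. In 8 of 8 groups both Tnrc6a libraries numbered 3 and 4 lay above both numbered 1 and 2, and so did Drosha and Ago2 in 7 groups and Ago3 and Tnrc6b in 6. Xpo5 went the other way in 7 of 8 groups. For Ago2 the mean deviation from the group mean was -0.48 (log2 CPM) for replicate 1 and 0.43 for replicate 4. The labels do not say what a number shares.

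**Figure D5:**
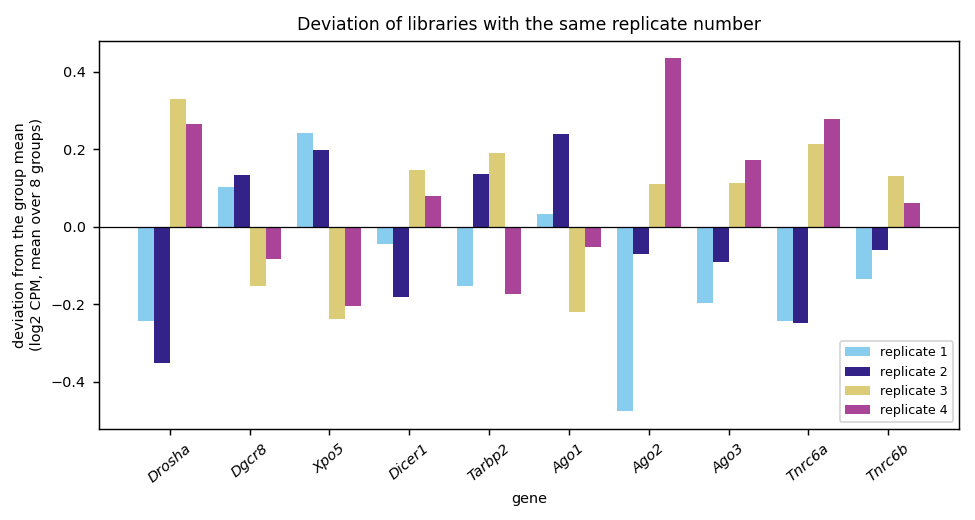
Mean deviation from the group mean (log2 CPM, over 8 groups) of libraries with each replicate number. Drosha, Ago2, Ago3 and Tnrc6a are below 0 at numbers 1 and 2 and above 0 at numbers 3 and 4, while Xpo5 is above 0 at 1 and 2 and below 0 at 3 and 4.

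Over the 32 libraries, the members most alike in log2 CPM were Drosha and Dicer1 (Pearson r = 0.73), Ago2 and Ago3 (0.72), Drosha and Tnrc6a (0.71) and Ago2 and Tnrc6b (0.71). These points share libraries, replicate numbers and depth, and the values are descriptions. Of 8809 genes compared, those most like Ago2 were Rab3gap2 (r = 0.96), Tpcn1 (0.91) and Sdc3 (0.90), and those most like Dicer1 were Nmt2 (0.79), R3hcc1l (0.78) and Derl2 (0.78).

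The wider pathway was read from 4 lists of partners, over the 4 mimics with 34.6% of all genes called. Of the 12 paralogs and nuclear partners, 11 were tested, 1 rose and 1 fell (median log2 fold change -0.10, against 0.01 for all genes). Adar, an RNA-editing enzyme that interferon induces, rose (0.80, SE 0.08, limma-voom adjusted p = 7.79e-10). Ago4, the fourth Argonaute, fell from 43.4 to 29.3 CPM (-0.57, SE 0.07, adjusted p = 2.35e-07). Ago4 was also the 1 of 12 genes of this list called with miR-146a in LPS-treated cells, against 2.51% of all genes, and rose from 25.7 to 41.8 CPM (0.66, SE 0.13, adjusted p = 0.027). That call was lost without LPS_scramble replicate 1, 3 or 4 or LPS_miR-146a replicate 3 (adjusted p up to 0.115).

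Of 25 deadenylation, decapping and decay genes, 24 were tested, 4 rose and 1 fell (median 0.09). Those named by the rule were Cnot1, the scaffold of the CCR4-NOT deadenylase (0.32, adjusted p = 1.35e-05), and the decapping genes Dcp1a (0.31, adjusted p = 0.000145) and Dcp2 (0.38, adjusted p = 0.000762), all by limma-voom. Of 13 turnover and RISC cofactor genes, 11 were tested, 4 rose and 1 fell (median -0.02). The helicase Mov10 rose (0.67, adjusted p = 1.07e-06), Zcchc6, a terminal uridylyl transferase, rose (0.32, adjusted p = 0.000253) and Snd1, a nuclease, fell (-0.42, adjusted p = 8.03e-06). Cnot1, Dcp1a and Zcchc6 lay near the fold limit, and each was no longer called with DESeq2 or in 5, 8 and 5 of the 32 fits that left out 1 library (log2 fold changes of 0.28 to 0.36 in those 32 fits). With a simpler reading of the lost decimals Cnot1 turned to -0.18.

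Of 6 chaperones that help load Argonaute, 4 were tested and Hsp90ab1 fell (-0.34, adjusted p = 2.7e-05). With miR-146a in vehicle cells, where 2.66% of all genes were called, 2 of the 11 turnover and RISC cofactor genes tested were called. Both encode uridylyl transferases and rose, Zcchc6 (0.86, adjusted p = 0.0334) and Zcchc11 (0.72, adjusted p = 0.0404). Of 5 loading chaperones tested there, 1 was called, the Hsp90 partner Fkbp4, which fell (-0.70, adjusted p = 0.0497), by limma-voom. Each of these 3 calls was lost on leaving out any library but VEH_scramble replicate 1 (adjusted p up to 0.116 for Zcchc6, 0.142 for Zcchc11 and 0.151 for Fkbp4).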

How the data were processed

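The authors quantified genes with the nf-core rnaseq workflow on GRCm38 after ribosomal RNA depletion. The deposited table holds estimated counts, called counts by the authors, whose decimal marks were lost: of 109458 values of 20000 or more, 0.0155% end in 0 against 10% for whole numbers. A model gave each value its most probable number of lost decimals (28.6% of values above 0 were given any). It was tested on simulated data built from its own restored values, where 99.96% of the certain values were read right. That simulation takes the restored levels and fractions as given, so it cannot check them. A gene with an uncertain value (probability under 0.9, 1.37% of values) in a comparison was left out of it. This model replaced an earlier one after first tests had been seen, because that one misread genes such as Csf1r.

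Values were rounded and tested with limma-voom 3.58.1 after filterByExpr and TMM (edgeR 4.0.16), with Benjamini-Hochberg adjustment over all genes tested. Each fit held the pair of groups compared, the 4 groups of an interaction, or all 8. DESeq2 1.42.0, edgeR, other restorations, filters and scalings, the replicate block and leaving out each library were alternatives. The lowest same-numbered correlation was 0.145 to 0.321 in the 6 paired comparisons, and the pairing rests on these correlations, not on the labels. Members and lists were chosen with earlier results of these data known. Named list genes had the smallest adjusted p among called genes, up to 3 per list.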

Additional observations from a re-analysis of the deposited data

Results flagged for a closer look

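In 4 of 80 groups of 4 libraries, 1 library lay far from the other 3 by Dixon's criterion, which chance gives in about 1 of 20 groups. Dgcr8 in LPS_miR-146a replicate 4 was 29.5 CPM against 19.98 to 20.3 CPM. Xpo5 in VEH_scramble replicate 1 was 83.4 CPM against 58.0 to 58.3 CPM. Dicer1 in VEH_miR-7a replicate 4, the library with the lowest total, was 39.7 CPM against 59.4 to 62.7 CPM. Ago1 in LPS_miR-29a replicate 2 was 60.0 CPM against 43.0 to 44.0 CPM.

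For 2 genes the mimics lay on opposite sides of the scramble mean in every library, and the difference was not tested. How many of all genes do so was not counted, so the 2 cannot be set against a background. In vehicle cells Dicer1 was 76.6 to 95.7 CPM with miR-146a and 39.7 to 62.7 CPM with miR-7a, around a scramble mean of 64.4 CPM. The VEH_miR-7a libraries held 31 to 335 Dicer1 counts, and replicates 2 to 4 had the high share of structural RNA given above. In LPS-treated cells Ago2 was 1372 to 2455 CPM with miR-146a and 581 to 827 CPM with miR-29a, around a scramble mean of 1334 CPM.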

How the results depend on the processing

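Values here are the number of the 10 genes called. DESeq2 called 2 (LPS against VEH, scramble), 1 (miR-7a) and 2 (miR-29a), against 22.2%, 10.8% and 30.6% of all genes. With no filter on low counts, LPS against VEH with miR-7a gave 2 (31.2% of all genes) and miR-146a against scramble with LPS 0 (0.89% of all genes). With all 32 libraries in 1 fit, LPS against VEH with miR-29a gave 3 (28.6% of all genes). With values as deposited, 0 were called in any comparison, and Ago3 with miR-146a and vehicle reversed to -0.43. The simple restoration rule gave 0 for LPS against VEH with miR-29a, for miR-29a with LPS and for miR-146a in both conditions, with log2 fold changes of -2.53 and -2.26 (Ago2) and 1.57 with LPS and 0.83 with vehicle (Ago3). Over the 4 mimics it gave 2, losing Ago2 (-0.95, adjusted p = 0.0884), and a probability minimum of 0.99 also gave 2, with 6 of the 10 genes tested and Ago2 not among them. For miR-146a with LPS, uncertain values kept, a probability minimum of 0.99 (which leaves Ago3 out) and edgeR each gave 0. In that order they called 260 of 13094, 347 of 11597 and 183 of 12553 genes. Over the 4 mimics, no minimum fold change gave 5 and leaving out both miR-7a groups 1. Summing Ago1 and Ago3 gave 0 for miR-146a with vehicle. The cause was not tested. The earlier restoration made the same number of calls in all 14 comparisons.

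The replicate block gave 2, 2 and 6 (LPS against VEH with scramble, miR-7a and miR-29a), 2 (miR-29a with LPS) and 4 (miR-146a with LPS), and it changed no other count. In LPS against VEH with miR-7a, the 2 were Drosha and Dicer1, against 14.7% of all genes. There the numbers missed the limit of 0.1 for every pair (lowest correlation 0.0688), although the mean was 0.135 for same-numbered against -0.0463 for other pairs. Leaving out 1 library at a time gave 0 to 1 for LPS against VEH with scramble, 1 to 3 with miR-29a, 0 to 1 for miR-29a with LPS, 0 in all 8 for miR-146a with LPS, 0 to 1 for miR-146a with vehicle, and 2 to 3 over the 4 mimics, where Tnrc6a was lost without VEH_miR-7a replicate 1 or VEH_miR-29a replicate 2. Depth limits the smallest libraries most, with 3 counts worth 3.85 CPM in VEH_miR-7a replicate 4.

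Without counting the values as deposited and the fits that leave out 1 library, the count of all genes called ran from 1118 to 3102 (main 2239) for LPS against VEH with scramble, 413 to 7956 (802) with miR-7a, 2090 to 4543 (3268) with miR-29a, 173 to 899 (561) with miR-146a and 3665 to 20043 (4233) over the 4 mimics. Against scramble it ran from 109 to 1323 (686) for miR-29a with LPS, 0 to 1294 (315) for miR-146a with LPS, 4 to 1551 (311) for miR-146a with vehicle, 51 to 1168 (400) for miR-7a with LPS, 6 to 335 (6) for miR-7a with vehicle and 1 to 107 (2) for miR-29a with vehicle. The values as deposited gave 108, 265, 229, 36 and 1289 in the first 5 of these and 18, 31, 21, 35, 56 and 22 in the last 6. Leaving out 1 library gave 1143 to 2945, 449 to 864, 2241 to 3714, 295 to 519 and 4117 to 4449 in the first 5, and 210 to 747, 36 to 287, 0 to 1295, 86 to 423, 2 to 252 and 1 to 9 in the last 6. The lowest counts came without LPS_scramble replicate 4 for LPS against VEH with scramble (1143) and for all 3 mimics with LPS (210, 36 and 86), and without VEH_miR-146a replicate 3 for miR-146a with vehicle (0), where the highest came without VEH_scramble replicate 1 (1295). For the interactions with LPS the counts were 2 to 69 (4) for miR-7a, 2 to 21 (2) for miR-29a and 0 to 26 (3) for miR-146a, with 62, 6 and 13 for the values as deposited and 2 to 140, 0 to 9 and 0 to 103 on leaving out 1 library. Of the named list genes, Cnot1 over the 4 mimics turned to -0.18 with the simple restoration rule, and the others kept their direction.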
